A study of Mus musculus with 21 samples.

Results

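The levels of 10 genes that mark the neural plate and neural progenitor cells were followed across cultured mouse pluripotent cells and mouse epiblasts: Sox1, Sox3, Pax6, Nes, Zfp521, Zic1, Zic2, Zic5, Six3 and Hesx1. They were taken by symbol from a table of raw counts, which held all 10 of them among 33861 genes. RNA was sequenced from 12 cultured samples of 1000 cells each and from 9 epiblasts collected singly. The FS lines (FS1 and FS2, formative stem cells by their label) were grown in a medium called A3XR, FS1 sampled at passages 10, 11 and 18 and FS2 at passages 12, 13 and 16. The EpiSCs (epiblast stem cells) carry the line name E14, were kept in medium AF or medium AFX, after which their groups are named, and were taken at passages 14, 15 and 16 from each. Epiblasts came from embryonic days E5.0 (embryos 1, 2 and 4), E5.5 and E6.0 (embryos 1, 2 and 3 at each), and the oldest stage is E6.0 in its titles but E6.5 in another label field. The labels used here give no genotype, strain or transgene. The cultured samples are passages of a line, so their n is of passages and not of separate derivations.

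The neural plate forms from epiblast cells that do not take a mesodermal or endodermal fate, a step that BMP, NODAL and WNT signals oppose and FGF signals help to prepare. SOX1 and SOX3 belong with SOX2 to the SOXB1 group of transcription factors. SOX3 is already present throughout the early epiblast, whereas SOX1 is the usual first sign of committed neural plate. ZIC proteins are zinc finger factors, of which Zic2 and Zic5 are active in the epiblast and Zic1 later in the dorsal neural tube. SIX3 and HESX1 are homeobox factors of the anterior neural plate, and HESX1 is also made in anterior visceral endoderm. PAX6 marks radial progenitors and the eye, Zfp521 encodes a zinc finger factor that promotes entry into the neural lineage, and Nes encodes nestin, an intermediate filament of progenitor cells.

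Total counts ran from 5827093 to 15916800 per sample. Levels are given as CPM (the usual library-scaled counts, here after TMM scaling over the 21 samples), and differences as log2 fold changes ± SE with Benjamini-Hochberg adjusted p over all genes tested (edgeR quasi-likelihood test, two-sided, threshold 0.05). Of 10 general epiblast markers, 9 or 10 had more than 3 counts in every sample. In bulk RNA, fewer cells that express a gene cannot be told apart from less of its RNA per cell.

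The 10 genes fell into 2 sorts by their spread between samples of the same group, a division made after their values were seen and therefore given without a test. Nes, Zfp521, Sox3, Zic2 and Zic5 were steady between passages: in the 4 cultured groups (FS1, FS2, AF and AFX) their coefficients of variation lay between 1.39% and 23.6%, whereas among E5.0 embryos they reached 66.4% (Zfp521). Sox1, Pax6, Zic1, Six3 and Hesx1 had coefficients of 42.1% to 132% in those groups. Per kilobase of exon, the highest mean levels in FS cells were 49.1 CPM per kb for Nes, 44.5 for Zic2, 20.99 for Zic5 and 12.5 for Sox3, and the lowest 0.121 for Zic1 and 0.108 for Pax6. In other cultures the order differed: the variable Hesx1 was above the steady Zfp521 in FS1 (5.90 against 4.85 CPM per kb), AF (4.53 against 2.75) and AFX (9.34 against 4.93). Some of the variable genes rested on few counts: Pax6 had 1 to 26 counts in an FS sample.

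**Figure D1:**
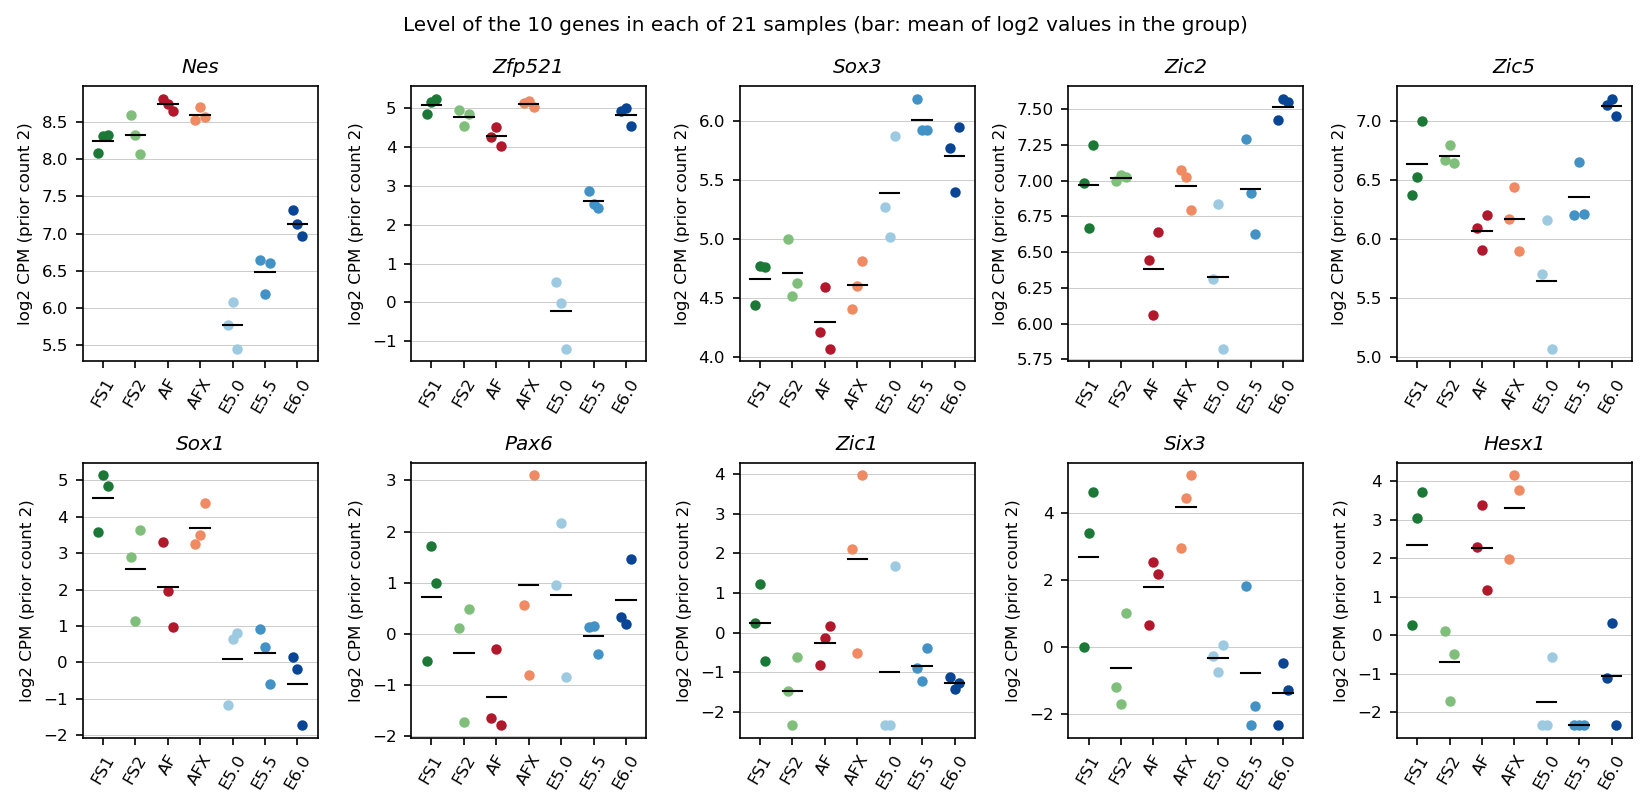
Level of each gene in all 21 samples as log2 CPM with a prior count of 2 (points are samples in order of passage or embryo number, the bar is the mean of the log2 values of a group, and the vertical scale differs between genes). The top 5 genes have tight cultured groups, with Nes and Zfp521 lowest at E5.0, and the bottom 5 spread widely within cultured groups.

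**Figure D2:**
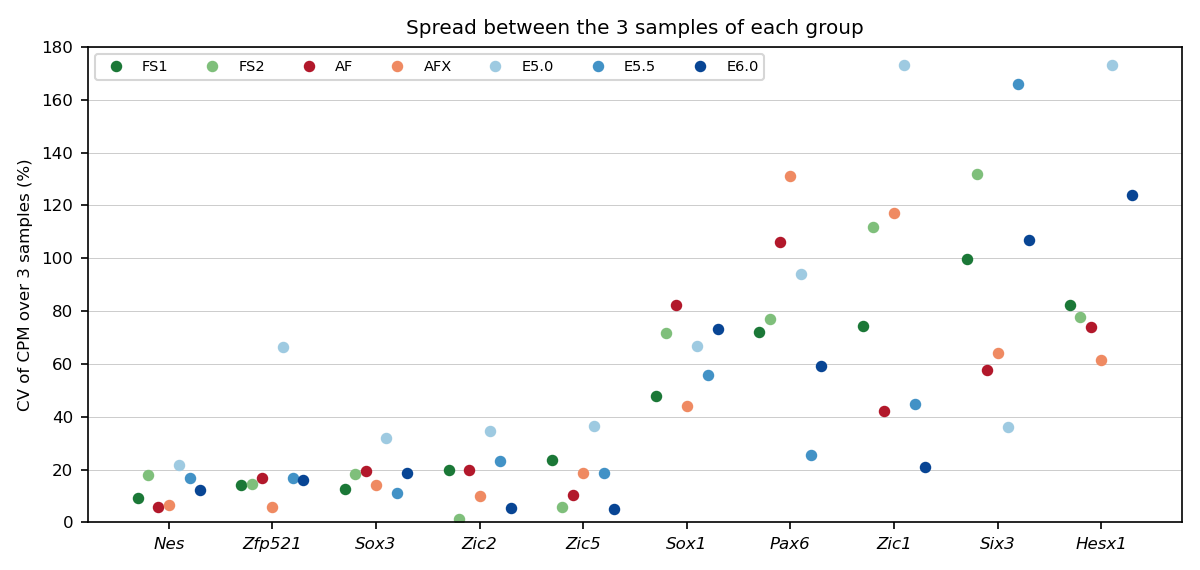
Coefficient of variation of CPM over the 3 samples of each group, in percent, for each gene. Nes to Zic5 stay at or below 23.6% in the cultured groups, and Sox1 to Hesx1 start at 42.1% there (Hesx1 has no value at E5.5, where it had no count).

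In FS against AF cells, which compares different lines in different media, 3 of the 10 genes were higher in FS (Zfp521, Zic2 and Zic5) and 1 was lower (Nes), against 19.5% of genes (8.86% higher and 10.6% lower) past the threshold among 16052 tested. In FS against AFX cells 2 of 10 passed, Zic5 higher and Zic1 lower, against 8.70% of genes (3.78% higher and 4.92% lower). In AFX against AF, the same line name in different media, 2 of 10 passed, Zfp521 and Zic2, both higher in AFX, against 8.73% of genes (4.30% higher and 4.42% lower). All 10 genes passed the filter on low counts in the cultured samples. FS is the FS1 and FS2 samples together (n = 6), and AF and AFX have n = 3. These comparisons share groups: AF enters 2 of them, AFX 2 and FS 2. Markers of other cell types moved with AF. The 11 visceral endoderm genes summed to 51.1 to 79.8 CPM in AF, 2.42 to 16.8 in AFX, 1.63 to 2.88 in FS1 and 0.241 to 0.399 in FS2, with Afp at 0 in all of them, and 4 of 4 tested were lower in FS than in AF. The 9 extraembryonic ectoderm genes summed to 230.2 to 404 CPM in AF, 101 to 151 in AFX, 79.8 to 104 in FS1 and 50.8 to 59.4 in FS2, and 5 of 6 tested were lower in FS. Their part in the differences was not tested.

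Of the SOXB1 genes, Sox3 (ENSMUSG00000045179, chrX:60891366-60893430) was at 21.6, 27.1 and 27.0 CPM in FS1, 31.9, 22.7 and 24.5 in FS2, 18.4, 24.0 and 16.6 in AF and 21.03, 24.2 and 28.0 in AFX. The 4 groups overlapped, and no culture comparison of Sox3 passed (the largest was FS against AF, 0.38 ± 0.16, adjusted p 0.121). Sox3 is X-linked, and Xist was at 272 to 722 CPM in FS1 and below 1 CPM in the other cultured samples, yet Sox3 in FS2 against FS1 was at 0.04 ± 0.18, adjusted p 0.940. Sox1 (ENSMUSG00000096014, chr8:12395295-12400126, a single exon) was at 11.7, 35.1 and 28.5 CPM in FS1, 7.24, 2.01 and 12.3 in FS2, 9.76, 3.70 and 1.77 in AF and 9.27, 11.01 and 20.4 in AFX. Each AF sample was below each FS1 sample, while FS2 overlapped AF. In FS against AF Sox1 was at 1.69 ± 0.84, adjusted p 0.193. With FS1 alone as FS it passed (2.34, adjusted p 0.0294), and with FS2 alone it was at 0.54 and did not.

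Of the ZIC genes, Zic2 (ENSMUSG00000061524, chr14:122475435-122479852) and Zic5 (ENSMUSG00000041703, chr14:122456795-122465677) are neighbours that run away from each other with 9757 bases between them. Zic2 was at 127, 101 and 152 CPM in FS1, 128, 131 and 130.3 in FS2, 86.8, 66.5 and 99.3 in AF and 134, 129.9 and 111 in AFX. Every FS and AFX sample lay above every AF sample. Zic2 was 1.51-fold higher in FS than in AF (0.59 ± 0.14, adjusted p 0.00723) and 1.48-fold higher in AFX than in AF (0.57 ± 0.16, adjusted p 0.0350), whereas FS and AFX were at 0.03 ± 0.14, adjusted p 0.936. The AFX call did not hold without AF passage 14 or 15 or AFX passage 14 or 15 (log2 0.42 to 0.58, adjusted p 0.0785 to 0.116). It was also lost with the compared groups alone (0.56, adjusted p 0.0712) and with a replicate block of passage number (0.58, adjusted p 0.114).

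Zic5 was at 82.8, 92.0 and 128 CPM in FS1, 102, 111 and 100.1 in FS2, 68.2, 59.7 and 73.6 in AF and 71.9, 86.9 and 59.5 in AFX. The FS samples lay above all AF samples and overlapped AFX. Zic5 was higher in FS than in AF (0.60 ± 0.15, adjusted p 0.00937) and than in AFX (0.49 ± 0.15, adjusted p 0.0492), and AFX against AF was at 0.11 ± 0.17, adjusted p 0.774. So AFX stood with FS for Zic2 and with AF for Zic5, although whether the 2 genes' differences are unequal was not tested. The call against AF was lost with FS1 alone as FS (0.58, adjusted p 0.0505). The Zic5 call against AFX was lost with the compared groups alone (0.49, adjusted p 0.0534), with FS1 alone as FS (0.48, adjusted p 0.156), and without AFX passage 14 or 16, FS1 passage 18, or FS2 passage 12, 13 or 16 (log2 0.36 to 0.49, adjusted p 0.0724 to 0.237).

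Zic1 (ENSMUSG00000032368, chr9:91358058-91365810) was low in all cultures but AFX passages 14 and 16. Its level was 0.994, 2.13 and 0.408 CPM in FS1, 0.161, 0 and 0.456 in FS2, 0.371, 0.705 and 0.929 in AF and 4.10, 0.501 and 15.7 in AFX, so that AFX passage 16 held 188 counts and AFX passage 15 held 4. In FS against AFX it was at -3.36 ± 0.88, adjusted p 0.0318. Without AFX passage 16 the difference was -1.84, adjusted p 0.313, and the call was also lost without AFX passage 14, FS1 passage 18, or FS2 passage 12 or 16 (log2 -3.61 to -3.15, adjusted p 0.0501 to 0.0739). It was also lost with the compared groups alone (-3.36, adjusted p 0.0690), with no filter (-3.35, adjusted p 0.108) and with FS1 alone as FS (-2.56, adjusted p 0.161), and moved to -4.80 with FS2 alone and -4.05 without FS1 passage 11. In AFX against AF Zic1 was at 3.30 ± 1.13, adjusted p 0.0979, and past the threshold at 3.83 without AFX passage 15 and with DESeq2 (3.31, adjusted p 0.0221), but at 1.79, adjusted p 0.403 without AFX passage 16. The neighbouring Zic4 overlaps 60 exon bases of Zic1 on the other strand, and had at most 49 counts.

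Nes (ENSMUSG00000004891, chr3:87971078-87980451) was at 273, 319.7 and 321 CPM in FS1, 387, 320.4 and 269.8 in FS2, 452, 430.4 and 404 in AF and 369, 418 and 379 in AFX. Every AF sample was above every FS sample. Nes was 1.37-fold lower in FS than in AF (-0.46 ± 0.11, adjusted p 0.00875), a difference past the threshold in all 17 alternatives run. Against AFX it was at -0.31 ± 0.11, adjusted p 0.0992. Nestin is found in many progenitor and mesenchymal cells besides neural ones. Fibroblast markers were also higher in AF than in FS: the 10 genes of that list summed to 228 to 276 CPM in AF, 32.5 to 56.7 in AFX, 19.7 to 31.5 in FS1 and 26.0 to 51.4 in FS2. Their sums in AFX were thus far below AF, whereas Nes in AFX against AF was at -0.145 ± 0.128, adjusted p 0.584. Of that list 9 or 10 of 10 genes had more than 3 counts in an AF sample and 4 to 7 in an FS sample, with Lum at 0 in FS, and their part in the Nes difference was not tested.

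Zfp521 (ENSMUSG00000024420) was at 28.7, 35.6 and 37.9 CPM in FS1, 30.9, 23.1 and 28.7 in FS2, 19.0, 22.8 and 16.3 in AF and 35.0, 36.4 and 32.6 in AFX. The AF samples were the lowest 3 of the 12, just below FS2 passage 13. It was 1.58-fold higher in FS than in AF (0.66 ± 0.16, adjusted p 0.0105) and 1.79-fold higher in AFX than in AF (0.84 ± 0.19, adjusted p 0.0118). Without AF passage 16 both calls were lost, at 0.54, adjusted p 0.0681, and 0.71, adjusted p 0.0525. The first was also lost with FS2 alone as FS (0.49, adjusted p 0.0533). FS and AFX were at -0.18 ± 0.16, adjusted p 0.558.

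**Figure D3:**
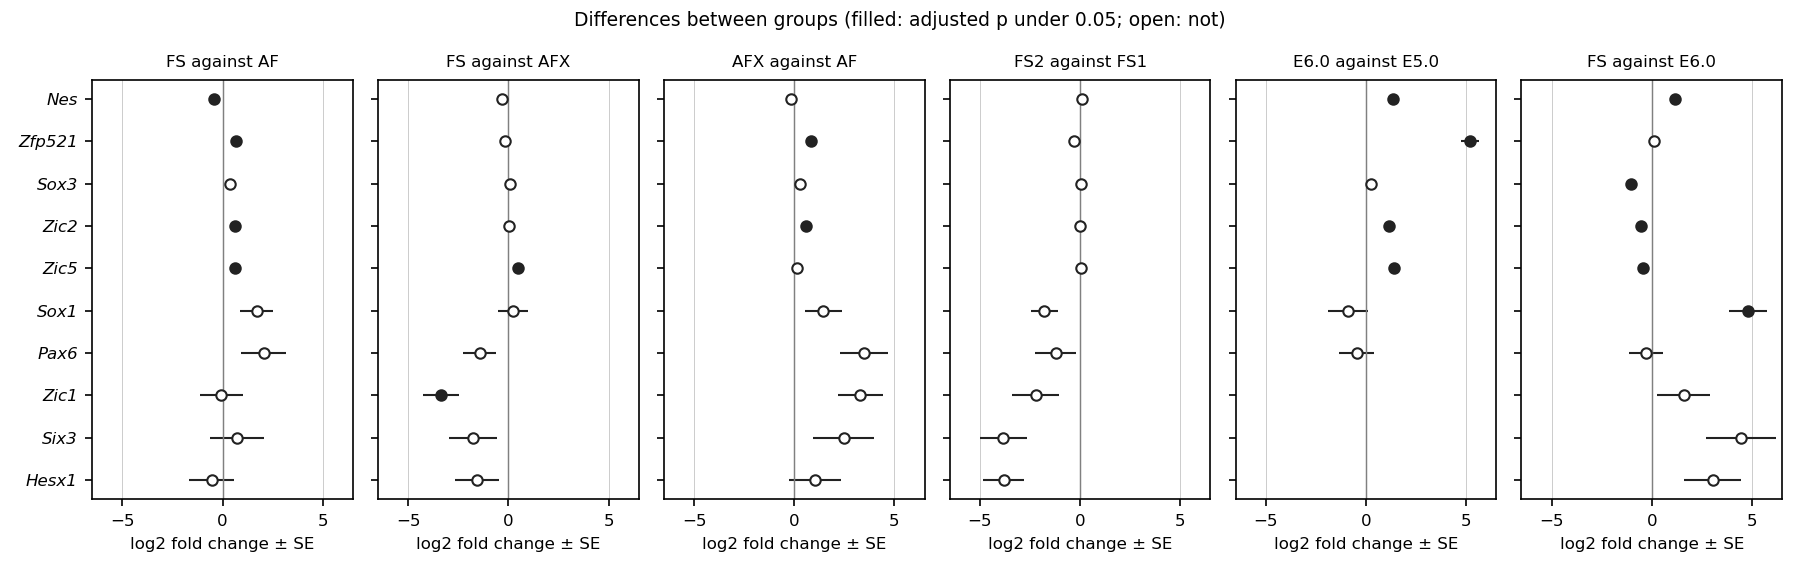
Log2 fold change (first group over second, points, with SE as bars) of the 10 genes in 6 comparisons, filled where the adjusted p was under 0.05. Steady genes have short bars and pass with small differences such as 0.59 for Zic2 in FS against AF, and Six3 and Hesx1 do not pass at -3.83 and -3.81 in FS2 against FS1. Zic1, Six3 and Hesx1 were not tested between epiblast stages, and the fitted Zic1 value against E6.0 rests on 2 counts per embryo.

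The anterior homeobox genes Six3 and Hesx1 spread widely between passages of a line. Six3 (ENSMUSG00000038805, chr17:85613608-85629302) was at 0.795, 10.3 and 24.1 CPM in FS1, 0.241, 0.106 and 1.82 in FS2, 1.36, 5.55 and 4.27 in AF and 7.46, 21.4 and 34.6 in AFX. Within FS1 its highest sample was 30.3-fold above its lowest, and within AFX 4.63-fold. Hesx1 (ENSMUSG00000040726, chr14:26994416-27002329) was at 0.994, 8.04 and 13.1 CPM in FS1, 0.885, 0.106 and 0.513 in FS2, 4.69, 10.2 and 2.04 in AF and 3.76, 17.8 and 13.4 in AFX. In FS1 both genes were lowest at passage 10, and in FS2 no sample exceeded 1.82 CPM for Six3 or 0.885 for Hesx1. Neither passed between FS, AF and AFX: Six3 was at 2.47 ± 1.52, adjusted p 0.399 in AFX against AF and -1.77 ± 1.19, adjusted p 0.429 in FS against AFX, and Hesx1 at 1.02 ± 1.29, adjusted p 0.731 and -1.57 ± 1.08, adjusted p 0.441. Every AFX sample was above every AF sample for Six3, and AFX against AF passed with those groups alone (2.46, adjusted p 0.0385) and with passage number as a replicate block (2.46, adjusted p 0.00548). With FS2 alone as FS both were lower than in AFX, Six3 at -4.67, adjusted p 0.00451, and Hesx1 at -4.46, adjusted p 0.00469. With the FS lines as separate groups Hesx1 passed as well (-2.54, adjusted p 0.0452).

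Six3 shares exon bases on the other strand with Six3os1 (106 bases), which had up to 522 counts in a sample, and with Gm28528 (168 bases). The strand setting of the counting is not given in the sources used here, so reads from those stretches could not be assigned with certainty. Pax6 (ENSMUSG00000027168, chr2:105668900-105697364) was at 0.497, 3.07 and 1.79 CPM in FS1, 0.885, 0.106 and 1.20 in FS2, 0.124, 0.616 and 0.0929 in AF and 1.28, 0.376 and 8.41 in AFX. A single sample, AFX passage 16 with 101 counts, stood above the rest, and in the other 11 cultures Pax6 had at most 26 counts. In AFX against AF Pax6 was at 3.50 ± 1.19, adjusted p 0.0931, and without AFX passage 16 at 1.54, and DESeq2 called it (3.54, adjusted p 0.0211). In FS against AFX it was at -1.44 ± 0.83, adjusted p 0.334, and turned to 0.51 without that sample.

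The promoters of 5 genes are shown so that those of 3 variable genes (Sox1, Six3 and Hesx1) can be read beside those of 2 steady ones (Zic5 and Nes). Each window holds 250 bases before and 50 after a start site in RefSeq (GRCm38.p6, the same coordinates as mm10), read 5′ to 3′ along the gene, with capitals for ATGCAAAT, the octamer that POU factors bind, and for CCAAT, in either orientation. The windows are chr8:12395269-12395568 for Sox1, chr17:85620584-85620883 for Six3, chr14:27000112-27000411 for Hesx1 (all plus strand), chr14:122465609-122465908 for Zic5 (minus strand) and chr3:87970843-87971142 for Nes (plus strand). The Six3 and Hesx1 windows lie inside the spans given above for these genes, and most of the Sox1 window lies inside its span. The annotated starts of these 3 genes are upstream of the start sites used for the windows.
Sox1: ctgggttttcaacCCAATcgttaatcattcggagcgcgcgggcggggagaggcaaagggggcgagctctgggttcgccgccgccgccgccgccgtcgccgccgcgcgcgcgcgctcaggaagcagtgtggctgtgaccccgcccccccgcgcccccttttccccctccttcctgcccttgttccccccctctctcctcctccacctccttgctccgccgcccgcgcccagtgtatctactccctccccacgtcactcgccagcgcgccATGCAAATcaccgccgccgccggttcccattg
Six3: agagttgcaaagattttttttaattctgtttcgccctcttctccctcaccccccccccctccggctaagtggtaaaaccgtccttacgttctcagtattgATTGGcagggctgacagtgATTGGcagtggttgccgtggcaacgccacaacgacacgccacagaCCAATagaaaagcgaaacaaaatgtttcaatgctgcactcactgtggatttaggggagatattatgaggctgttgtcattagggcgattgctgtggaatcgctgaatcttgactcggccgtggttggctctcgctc
Hesx1: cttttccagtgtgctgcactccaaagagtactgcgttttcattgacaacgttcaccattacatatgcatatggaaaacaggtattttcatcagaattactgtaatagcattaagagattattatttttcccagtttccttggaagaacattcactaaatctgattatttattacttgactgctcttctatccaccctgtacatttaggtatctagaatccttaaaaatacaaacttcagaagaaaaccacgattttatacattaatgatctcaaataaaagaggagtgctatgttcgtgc
Zic5: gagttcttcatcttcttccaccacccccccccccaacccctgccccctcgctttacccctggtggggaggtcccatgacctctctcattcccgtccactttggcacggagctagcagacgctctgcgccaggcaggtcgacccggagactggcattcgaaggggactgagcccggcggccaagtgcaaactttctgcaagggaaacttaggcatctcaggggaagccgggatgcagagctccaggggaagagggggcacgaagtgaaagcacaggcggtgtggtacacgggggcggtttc
Nes: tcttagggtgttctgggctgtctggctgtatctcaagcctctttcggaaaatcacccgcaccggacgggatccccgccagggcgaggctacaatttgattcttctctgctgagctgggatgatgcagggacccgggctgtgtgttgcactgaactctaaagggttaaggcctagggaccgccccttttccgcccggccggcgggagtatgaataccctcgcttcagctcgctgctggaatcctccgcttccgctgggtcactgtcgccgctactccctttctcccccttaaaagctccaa

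Windows of 7 of the 10 genes were read from that table, Pax6 with 2, and a window of Zfp521 is not reported here. Sox1 had 1 octamer, beginning at base 19 after its start, and 1.74% of all 32851 windows of this length held one. Six3 had 3 CCAAT matches, which begin 150, 131 and 86 bases before its start, Sox1 had 1, Zic5, Nes and Hesx1 had none, and 37.4% of windows had at least 1. CpG counts were 37 in Sox1, 18 in Nes, 15 in Zic5, 14 in Six3 and 4 in Hesx1, with a median of 7 over all windows. Of the 5, the Hesx1 window was also the poorest in G and C (33.7%, against 70.7% in Sox1), and it alone held TATAAA, on the opposite strand, a match found in 13.6% of windows. These matches describe letters only. Hesx1 lay below the median CpG count and the other 4 above it.

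Between the FS lines none of the 10 genes passed (FS2 against FS1, edgeR), against 3.85% of genes (2.65% higher and 1.20% lower), while 3 had an unadjusted p under 0.05 and DESeq2 called 2 (Six3 and Hesx1). With no filter on low counts 4 passed, Six3 (adjusted p 1.50e-26), Hesx1 (5.78e-18), Sox1 (2.80e-10) and Zic1 (0.0140). Their log2 fold changes hardly moved (Six3 -3.81, Hesx1 -3.8, Sox1 -1.77 and Zic1 -2.21), so these p-values came from a different estimate of the spread. As Six3 spread 30.3-fold within FS1, they do not measure how firm the differences are. The largest differences were lower values in FS2 of Six3 (-3.83 ± 1.16, adjusted p 0.109), Hesx1 (-3.81 ± 1.03, adjusted p 0.0712), Zic1 (-2.22 ± 1.18, adjusted p 0.368) and Sox1 (-1.79 ± 0.67, adjusted p 0.195). Without FS1 passage 10, whose Six3 lay within the FS2 range and whose Hesx1 lay just above it, both genes passed, Six3 at -4.37, adjusted p 0.0319, and Hesx1 at -4.33, adjusted p 0.0149. The steady genes lay between -0.32 (Zfp521) and 0.08 (Nes). FS1 passage 10 also had the highest summed level of the 12 primitive streak and mesendoderm markers among FS samples, 168 CPM against 33.9 to 61.2 in the other 5, and its part in the low Six3 and Hesx1 was not tested.

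Among epiblasts 7 of the 10 genes passed the filter on low counts. Zic1, Six3 and Hesx1 did not, and had at most 25, 29 and 12 counts in an epiblast. From E5.0 to E6.0 4 of the 7 tested genes rose (Zfp521, Nes, Zic5 and Zic2) and none fell, against 21.8% of genes (10.2% higher and 11.6% lower) among 14228 tested. From E5.0 to E5.5 2 of 7 rose, Zfp521 and Nes, against 6.82% of genes (3.07% higher and 3.75% lower), and from E5.5 to E6.0 the same 2 rose, against 4.43% of genes (1.89% higher and 2.54% lower). The 3 comparisons share their groups (n = 3 embryos each).

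Zfp521 changed most. It was at 1.24, 0.786 and 0.240 CPM at E5.0 (10, 4 and 2 counts), 7.13, 5.62 and 5.23 at E5.5 and 30.2, 31.8 and 23.2 at E6.0, without overlap between stages. It rose 7.80-fold by E5.5 (2.96 ± 0.43, adjusted p 0.00200) and a further 4.72-fold by E6.0 (2.24 ± 0.35, adjusted p 0.00195), in all 5.20 on the log2 scale. All 12 alternatives of each of these 3 comparisons kept Zfp521 past the threshold, with larger values without E5.0 embryo 1 (3.66 by E5.5 and 5.91 by E6.0).

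Nes was at 54.5, 67.4 and 43.4 CPM at E5.0, 99.8, 72.4 and 96.8 at E5.5 and 159, 139 and 125 at E6.0, again in 3 separate ranges. It rose 2.54-fold over the interval (1.34 ± 0.17, adjusted p 0.000114). Its steps were 0.70 ± 0.17, adjusted p 0.0287, and 0.65 ± 0.17, adjusted p 0.0455. The first step was lost without E5.0 embryo 1 or 4 or E5.5 embryo 1 or 3 (log2 0.56 to 0.70, adjusted p 0.0589 to 0.106) and the second without any 1 of its 6 embryos (0.52 to 0.74, 0.0634 to 0.191). With the compared groups alone the first was at 0.70, adjusted p 0.0739, and with a replicate block of embryo number at 0.55, adjusted p 0.155.

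Zic2 was at 79.2, 114 and 56.4 CPM at E5.0, 156, 120.3 and 98.6 at E5.5 and 171, 190.3 and 187 at E6.0. Zic5 was at 51.9, 71.3 and 33.4 CPM at E5.0, 73.6, 101 and 73.9 at E5.5 and 141, 146 and 132 at E6.0. Both had their 3 highest epiblast values at E6.0. Zic2 rose by 1.13 ± 0.24, adjusted p 0.00738, and Zic5 by 1.41 ± 0.23, adjusted p 0.000965, on the log2 scale from E5.0 to E6.0. Neither single step passed for them: Zic5 from E5.5 to E6.0 was at 0.75 ± 0.22, adjusted p 0.0813.

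Sox3 was at 38.4, 32.2 and 58.5 CPM at E5.0, 72.9, 60.7 and 60.4 at E5.5 and 54.6, 42.1 and 61.5 at E6.0. All E5.5 embryos lay above all E5.0 embryos and the E6.0 range overlapped both, but no step passed: E5.5 against E5.0 was at 0.57 ± 0.21, adjusted p 0.125 (unadjusted p 0.0177), E6.0 against E5.5 at -0.30 ± 0.21, adjusted p 0.507, and E6.0 against E5.0 at 0.27 ± 0.21, adjusted p 0.399. Xist varied between 0.657 and 969 CPM among epiblasts. Sox1 had 1 to 15 counts in each epiblast and Pax6 3 to 24, and neither passed in any stage comparison (E6.0 against E5.0: Sox1 -0.89 ± 1.01, adjusted p 0.579, and Pax6 -0.47 ± 0.87, adjusted p 0.749). Hesx1 had no count at E5.5, a level below 3 counts per sample.

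Visceral endoderm markers moved with stage in the opposite direction. The 11 genes of that list summed to 255 to 818 CPM at E5.0, 31.5 to 65.8 at E5.5 and 8.63 to 11.2 at E6.0, with 9 to 11 of them above 3 counts at E5.0 and 6 to 8 at E6.0. Their part in the rises of Zfp521, Nes, Zic2 and Zic5 was not tested. Primitive streak and mesendoderm markers summed to 113 to 171 CPM at E5.0, 26.5 to 71.0 at E5.5 and 115 to 335 at E6.0.

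Set against epiblasts, FS cells had 4 of the 10 genes higher and 1 lower than E5.5, against 43.8% of genes (23.0% higher and 20.8% lower) among 16614 tested. Against E6.0, FS had 2 higher and 3 lower, against 38.9% of genes (20.1% higher and 18.9% lower). AF had 2 higher and 3 lower than E6.0, against 35.2% of genes (18.1% higher and 17.1% lower). AFX had 5 higher and 3 lower, against 32.8% of genes (17.1% higher and 15.8% lower). Culture and embryo differ here in sample type as well, and the E6.0 group is shared by 3 of these comparisons. Sox3 was lower in every culture: 2.51-fold in FS than at E5.5 (-1.33 ± 0.17, adjusted p 1.93e-06), 2.04-fold in FS, 2.67-fold in AF and 2.16-fold in AFX than at E6.0 (adjusted p 6.76e-05, 2.11e-05 and 0.000304). General epiblast markers were lower in culture too, 7 of 10 in FS, AF and AFX alike against E6.0 and 7 of 10 (with 1 higher) in FS against E5.5, and they summed to 1455 to 3172 CPM in cultured samples against 5504 to 6018 at E5.5 and 6029 to 7538 at E6.0. Their part in the Sox3 difference was not tested. No cultured sample reached the lowest epiblast, 32.2 CPM at E5.0 embryo 2, and the highest culture was FS2 passage 12 at 31.9.

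Sox1 went the other way. It was 14.7-fold higher in FS than at E5.5 (3.88 ± 0.88, adjusted p 0.00177), 28.0-fold higher than at E6.0 (4.81 ± 0.96, adjusted p 0.000801), and higher than at E6.0 in AFX (4.56 ± 1.00, adjusted p 0.00224) and in AF (3.12 ± 1.01, adjusted p 0.0225). The AF call was lost without AF passage 14, or E6.0 embryo 2 or 3 (log2 2.26 to 3.34, adjusted p 0.0625 to 0.110), or with no filter (adjusted p 0.0616). The FS differences were 4.52 from E5.5 and 5.45 from E6.0 with FS1 alone as FS, and 2.73 and 3.66 with FS2 alone, all past the threshold. All 12 cultured samples exceeded the highest epiblast, 1.70 CPM at E5.5 embryo 1, the closest being AF passage 16 at 1.77. In culture Sox1 was above all epiblasts and Sox3 below them.

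Nes was higher in FS than at E5.5 (1.81 ± 0.14, adjusted p 1.95e-09) and higher than at E6.0 in FS (1.16), AF (1.61) and AFX (1.46), with adjusted p of 1.30e-06, 8.38e-08 and 3.38e-07. Zfp521 in FS was 5.15-fold above E5.5 (2.36 ± 0.23, adjusted p 4.48e-08), and did not pass against E6.0 in FS (0.12 ± 0.20, adjusted p 0.669), AF (-0.55, 0.0655) or AFX (0.29, 0.352). For FS against E6.0 the interval of 2 SE around the Zfp521 difference ran from -0.28 to 0.51. AF passages 14, 15 and 16 all lay below the lowest E6.0 embryo, at 23.2 CPM, and FS overlapped E6.0.

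Neither Zic2 nor Zic5 in FS passed against E5.5 (0.04 ± 0.17, adjusted p 0.884, and 0.31 ± 0.18, adjusted p 0.157). Against E6.0 they were lower, Zic2 at -0.51 ± 0.17, adjusted p 0.0192, and Zic5 at -0.44 ± 0.17, adjusted p 0.0428. Without E6.0 embryo 2 or 3 the Zic2 call was lost (log2 -0.48 and -0.49), as it was with FS1 alone (-0.52, adjusted p 0.0747) or FS2 alone (-0.50, adjusted p 0.0585) as FS. The Zic5 call was lost with FS1 alone (-0.46, adjusted p 0.113), FS2 alone (-0.42, adjusted p 0.102) or a mean of at least 5 CPM (-0.38, adjusted p 0.0797), and without any E6.0 embryo, FS1 passage 10 or 11, or FS2 passage 12 or 16 (-0.48 to -0.39, adjusted p 0.0626 to 0.136). In AF both were lower than at E6.0 in all 11 alternatives (Zic2 -1.12 ± 0.20, adjusted p 0.000193, and Zic5 -1.06 ± 0.20, adjusted p 0.000368). In AFX Zic5 was at -0.94 ± 0.20, adjusted p 0.00121, and Zic2 at -0.55 ± 0.20, adjusted p 0.0371, a call lost on leaving out any 1 AFX or E6.0 sample (-0.60 to -0.47, adjusted p 0.0531 to 0.130) or with a mean of at least 5 CPM (-0.48, adjusted p 0.0675).

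Of the variable genes, Six3, Hesx1 and Zic1 were higher in AFX than at E6.0. Six3 was at 6.22 ± 1.87, adjusted p 0.0186, lost without any 1 E6.0 embryo (5.76 to 7.36, adjusted p 0.0533 to 0.0698). Hesx1 was at 4.60 ± 1.53, adjusted p 0.0318, lost without AFX passage 15 or 16 or E6.0 embryo 1 or 3 (4.05 to 4.49, adjusted p 0.0596 to 0.108) or with no filter (4.59, adjusted p 0.0788), and was at 6.46 without E6.0 embryo 2. Zic1, with 2 counts in each E6.0 embryo, was at least 20.8-fold higher in AFX (taken against 3 counts per embryo, adjusted p 0.00990), and without AFX passage 16 the bound was 7.08-fold, not past the threshold (adjusted p 0.0746). In FS Six3 and Hesx1 did not pass against E6.0 (4.46 ± 1.76, adjusted p 0.0557, and 3.04 ± 1.41, adjusted p 0.101), and Six3 passed without FS1 passage 10, FS2 passage 12 or FS2 passage 13 (4.69 to 4.71, adjusted p 0.0343 to 0.0462). With FS1 alone as FS both passed, Six3 at 5.38, adjusted p 0.0119, and Hesx1 at 3.96, adjusted p 0.0157, and Six3 did with DESeq2 (4.65, adjusted p 0.00516) and with a mean of at least 5 CPM (4.52, adjusted p 0.0417). In AF neither passed against E6.0, but with those groups alone Six3 did (3.77, adjusted p 0.00457), as did Hesx1 (3.59, adjusted p 0.00890), and DESeq2 called Six3 (3.93, adjusted p 0.0468). Hesx1, with no count at E5.5, was at least 12.2-fold higher in FS (adjusted p 0.0152). FS1 passages 11 and 18 carried this bound, the other 4 FS samples being below 1 CPM: it was 6.56-fold without FS1 passage 18. The call was lost without E5.5 embryo 3 (adjusted p 0.0512) and with the compared groups alone (adjusted p 0.0660). Six3 in FS against E5.5 was at 2.49 ± 1.44, adjusted p 0.178, passed at 6.62 without E5.5 embryo 1, which held 29 of the stage's 30 counts, passed at 3.41 with FS1 alone as FS, and turned to -0.46 with FS2 alone as FS.

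A wider set of 63 neural genes in 5 lists covers other steps of neural development in the same comparisons. Of 11 genes of neurogenesis and neurons, 5 higher and 0 lower of 9 tested passed in FS against AF, 5 higher and 0 lower of 9 tested in AFX against AF, and 2 higher and 2 lower of 9 tested in FS against AFX, with median log2 fold changes of 1.79, 1.55 and -0.37 beside 0.02, 0.01 and 0 over all genes. The shares of all genes past the threshold were 8.86% higher and 10.6% lower in FS against AF, 4.30% higher and 4.42% lower in AFX against AF and 3.78% higher and 4.92% lower in FS against AFX. Tubb3, a neuronal tubulin, was at 47.2 ± 6.60 CPM (SD, n = 6) in FS, 31.5 ± 3.91 CPM (n = 3) in AFX and 10.8 ± 3.11 CPM in AF (FS against AF 2.13 ± 0.19, adjusted p 3.12e-06). Elavl3, which encodes a neuronal RNA-binding protein, was at 26.8 ± 6.52 CPM, 13.8 ± 4.37 CPM and 4.11 ± 1.32 CPM (FS against AF 2.68 ± 0.28, adjusted p 1.68e-05). Elavl3 was also higher in FS than in AFX (0.95 ± 0.24, adjusted p 0.0241), where Dcx, a gene of migrating neurons, was lower in FS (-1.94 ± 0.56, adjusted p 0.0447). Elavl3 also rose in epiblasts, from 8.84 ± 2.22 CPM at E5.0 to 34.9 ± 4.79 CPM at E6.0 (1.96 ± 0.25, adjusted p 8.81e-05), and so did Map2, which encodes a dendritic microtubule protein (3.20 ± 0.37, adjusted p 4.40e-05).

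Of 14 neural induction and pan-neural factors, 4 higher and 0 lower of 12 tested passed in FS against AF and 3 higher and 0 lower of 12 tested in AFX against AF, with medians of 0.23 and 0.27, beside 8.86% higher and 10.6% lower and 4.30% higher and 4.42% lower of all genes. Sox2, the third SOXB1 gene, was at 62.7 ± 11.9 CPM in FS, 33.6 ± 9.79 CPM in AF and 80.8 ± 25.4 CPM in AFX (FS against AF 0.90 ± 0.24, adjusted p 0.0199, and AFX against AF 1.27 ± 0.27, adjusted p 0.0120). Meis1, a homeobox gene, had the largest difference in FS against AF (1.52 ± 0.50, adjusted p 0.0495) but not the same pattern: it was at 14.9 ± 4.91 CPM in FS, 5.25 ± 3.79 CPM in AF and 3.20 ± 2.004 CPM in AFX, higher in FS than in AFX (2.18 ± 0.52, adjusted p 0.0192) and at -0.67 ± 0.57, adjusted p 0.572 in AFX against AF. Zeb2, whose protein restrains SMAD signalling, was also higher than in AF in FS (0.70 ± 0.18, adjusted p 0.0145) and in AFX (0.99 ± 0.21, adjusted p 0.00910), and Sox11 was higher in AFX than in AF (0.62 ± 0.13, adjusted p 0.0102). From E5.0 to E6.0 Zeb2 rose (1.96 ± 0.65, adjusted p 0.0435), as did Sox4 (0.99 ± 0.16, adjusted p 0.000687).

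Of 13 progenitor and Notch genes, 3 higher and 3 lower of 12 tested passed in FS against AF, and 2 higher and 2 lower of 10 tested in E6.0 against E5.0, beside 8.86% higher and 10.6% lower and 10.2% higher and 11.6% lower of all genes, with medians of 0.33 and 0.05. The Notch ligand gene Dll1 was higher in FS (2.04 ± 0.45, adjusted p 0.00608) and AFX (1.93 ± 0.49, adjusted p 0.0258) than in AF, and Dll3 and Slc1a3 were higher in AFX than in AF (2.84-fold, adjusted p 0.00351, and 1.73-fold, adjusted p 0.000963). Hes1, a Notch target, was lower in FS than in AF (-1.56 ± 0.32, adjusted p 0.00364) and rose from 6.12 ± 5.10 CPM at E5.0 to 24.0 ± 7.41 CPM at E6.0 (adjusted p 0.00923). Vim, like Nes an intermediate filament gene, was lower in FS than in AF (-1.45 ± 0.15, adjusted p 1.54e-05) and fell from E5.0 to E6.0 (-2.03 ± 0.27, adjusted p 0.000270) while Nes rose. Between the FS lines Ncam1, a cell adhesion gene of this list, was higher in FS2 (0.64 ± 0.16, adjusted p 0.0434). Msi1, an RNA-binding protein of progenitors, rose from 23.4 ± 10.7 CPM at E5.0 to 150.3 ± 5.23 CPM at E6.0 (2.67 ± 0.27, adjusted p 4.57e-05).

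Of 11 forebrain and eye field genes 6 could be tested in cultures and none passed between FS, AF and AFX (edgeR), while 1, 2 and 4 had an unadjusted p under 0.05 in FS against AF, FS against AFX and AFX against AF. Counts above 3 were found for 8 to 11 of the 11 genes in AFX samples, 3 in each AF sample, 4 to 7 in FS1, 2 to 5 in FS2, and 1 to 6 in epiblasts. In FS against E5.5 2 of 6 tested were higher and 1 lower, against 23.0% higher and 20.8% lower of all genes. Otx2 was lower (-0.51 ± 0.20, adjusted p 0.0464), and Rax and Fezf2, named after their values were seen, were at least 5.05-fold and 4.19-fold higher (adjusted p 0.0189 and 0.0248). Without FS1 passage 18 the Rax bound was 3.27-fold, and without FS1 passage 11 the Fezf2 bound was 2.53-fold. Of 14 midbrain, hindbrain and spinal cord genes 6 could be tested in cultures, and 1 passed between FS, AF and AFX: Pax2, named here after its values were seen, was at least 10.6-fold higher in AFX than in AF (against 3 counts per AF sample, adjusted p 0.0277), a bound of 3.85-fold without AFX passage 16. From E5.0 to E6.0 3 of 5 tested fell (En1, En2 and Pax8, the first and last named after their values were seen), beside 11.6% of all genes, with En2 at 8.86 ± 5.28 CPM at E5.0 and 0.920 ± 0.573 CPM at E6.0 (-3.28 ± 0.67, adjusted p 0.00342). Visceral endoderm markers fell over the same stages (8 of 9 tested), and their part in these falls was not tested.

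**Figure D4:**
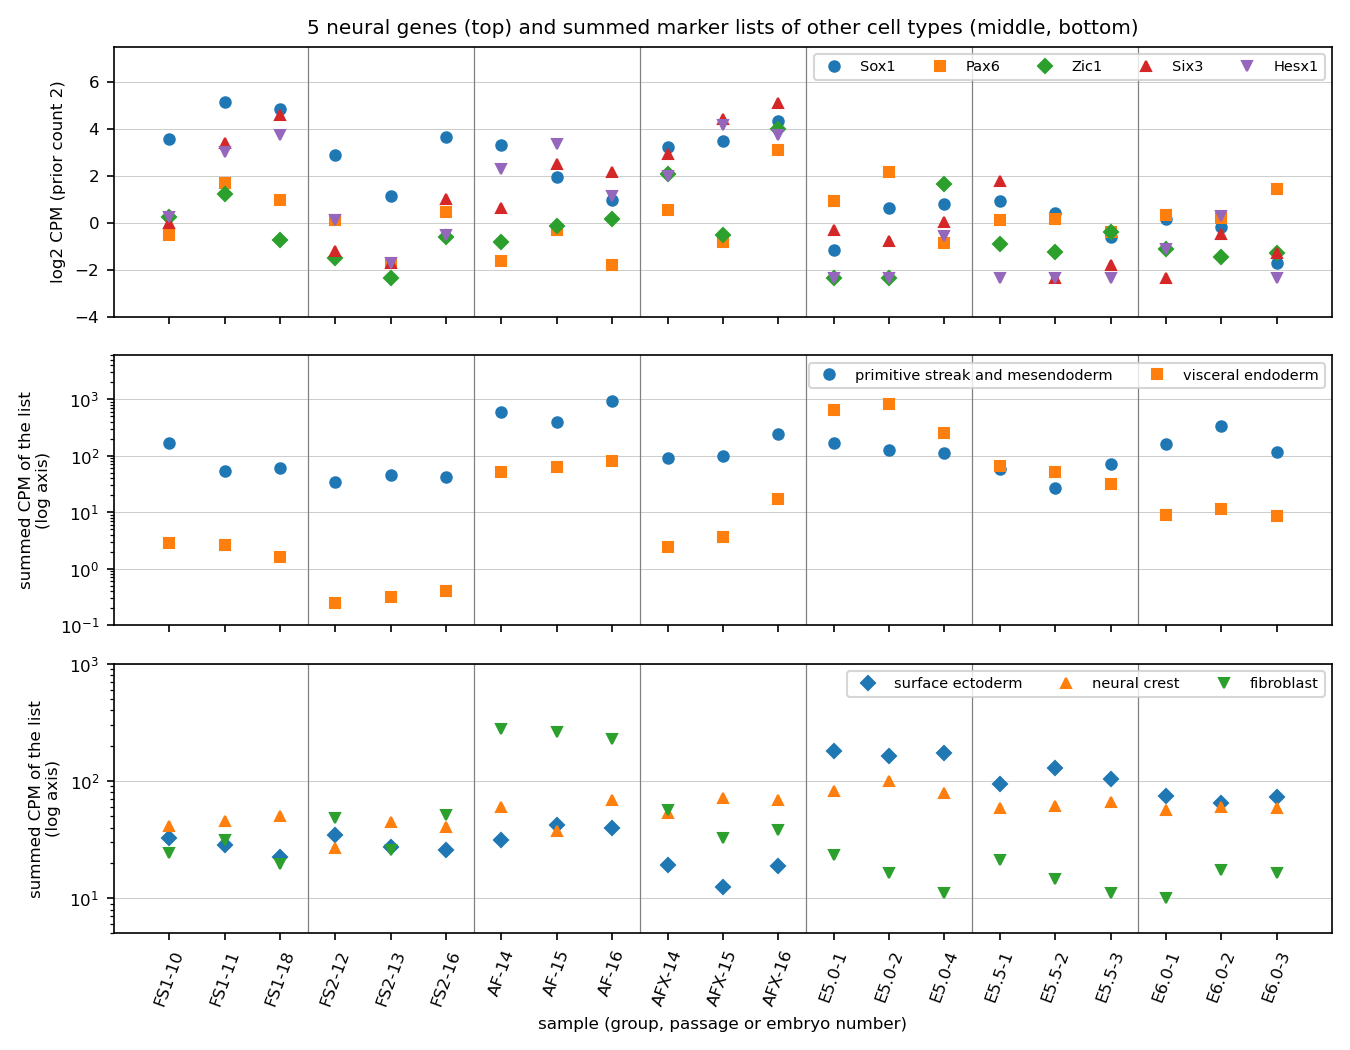
Top: log2 CPM (prior count 2) of the 5 variable neural genes in each sample. Middle and bottom: summed CPM, on log axes, of marker lists of other cell types in the same samples. AFX passage 16 has the highest Pax6, Zic1 and Six3 of all samples and the highest streak and visceral endoderm sums of the AFX samples (243 and 16.8 CPM).

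AFX passage 16, the sample on which Pax6 and Zic1 turned, was thus also the highest AFX sample in streak and visceral endoderm markers. Its 12 streak and mesendoderm markers summed to 243 CPM against 89.7 and 99.1 in the other AFX samples. Of the 12, 10 had more than 3 counts, as in AFX passage 14, against 9 in AFX passage 15. Its surface ectoderm (18.9 CPM) and neural crest (69.2 CPM) sums lay between those of the other AFX samples. In AF cells the same list summed to 393 to 949 CPM and in FS2 to 33.9 to 45.7. Surface ectoderm markers summed to 12.4 to 19.1 CPM in AFX, 31.4 to 42.0 in AF and 22.4 to 32.4 in FS1, mostly from Grhl2, with Krt14 at 0 in all cultures. Neural crest markers summed to 53.1 to 71.1 CPM in AFX and 26.8 to 44.7 in FS2, mostly from Foxd3, Sox9 and Ets1, and Sox10 had at most 19 counts in a sample. Whether cells of these types were present was not tested, nor was their part in the neural gene differences.

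By Pearson correlation of log2 CPM over the 21 samples, among 14561 other genes with a mean of at least 1 CPM, the gene most like Zic2 was its neighbour Zic5 (r = 0.865). Six3 was most like Six3os1 (0.903), which overlaps it, then Hesx1 (0.843). Hesx1 was most like Col2a1 (0.898) and Rax (0.897), the latter an eye field gene. Pax6 was closest to Pou3f2 (0.661) and Fezf2 (0.656), Zfp521 to Tmem108 (0.974), Nes to Igsf10 (0.966), Sox3 to Fgd1 (0.939) and Sox1 to Scube1 (0.913). Zic1 had no gene above 0.724 (Oxct1), and Zic5 was closest to Clip3 (0.882), before Zic2. The 21 samples fall into cultures and epiblasts, and each gene's values come from the same libraries, so these values describe the series and carry no test.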

How the data were processed

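The deposited table holds raw counts of reads per gene for all 21 samples. Reads were trimmed with Trim Galore, aligned to mm10 with TopHat2 2.1.0 and counted with featureCounts 1.5.0, per the submitters' processing notes, and the annotation release and strand setting are not given in the sources used here. Samples were grouped by their titles. Libraries of a group differed by more than sampling noise, so none was counted as a repeat of another. Counts as deposited were tested with edgeR 4.0.16 (R 4.3.3; TMM scaling, filterByExpr, robust quasi-likelihood F test, Benjamini-Hochberg adjustment), in 1 fit over the FS, AF and AFX groups, 1 over FS1, FS2, AF and AFX, 1 over the epiblasts and 1 over all 6 groups. Each SE is the log2 fold change divided by the square root of its F. A gene with at most 3 counts in each sample of a group was given a bound against 3 counts per sample. The code was tested on simulated data.

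The 10 genes and the lists were chosen with earlier results of these data known. All 10 genes are named. From each wider neural list at most 3 genes per comparison are named, chosen as the largest changes past the threshold where the higher group averaged 5 CPM or more, and exceptions are stated. Likeness was ranked over genes with a mean of at least 1 CPM. The alternatives were DESeq2 1.42.0, no filter or a mean of at least 5 CPM, the compared groups alone, FS1 or FS2 alone or as separate groups, a replicate block and leaving out each sample. P-values measure the spread between passages or single embryos as each fit estimates it. The very small values with no filter between the FS lines do not reflect the spread seen there. Some genes of the wider lists are counted but not reported here by name.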

Additional observations from a re-analysis of the deposited data

How the results depend on the processing

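The tally covers only differences of the 10 genes that passed at first or had a log2 fold change of at least 1 in either direction. Of these 845 recomputed values, 739 kept their direction and side of the threshold, 74 lost the call, 29 gained it and 3 reversed. Calls gained by smaller differences are not among the 29. The reversals were Pax6 in FS against AFX (0.51) and in AFX against E6.0 (-0.81) without AFX passage 16 (over all samples left out in turn, -1.94 to 0.51 and -0.81 to 1.75), and Six3 in FS against E5.5 (-0.46) with FS2 alone as FS, and the cause was not tested. Counts of the 10 genes past the threshold in FS against AFX were 0 with those 2 groups alone, 0 with FS1 alone, 4 with FS2 alone, 1 with a mean of at least 5 CPM and 1 with no filter. They were 4 in AFX against AF with DESeq2, 2 and 4 in FS2 against FS1 with DESeq2 and no filter, 1 and 5 in E5.5 against E5.0 with the groups alone and no filter, 4 and 4 in E6.0 against E5.5 with the same settings, 3 in FS against E6.0 with FS2 alone, and 5 in AFX against E6.0 with a mean of at least 5 CPM. Over all genes the counts were 1045, 1099 and 1298 in FS2 against FS1 (groups alone, DESeq2, no filter), 453, 1590 and 1659 in E5.5 against E5.0, and 1445, 1075 and 1107 in E6.0 against E5.5. Leaving out each sample in turn gave, over all genes, 820 to 1485 in FS against AFX, 732 to 1129 in AFX against AF, 316 to 478 in FS2 against FS1, 371 to 1260 in E5.5 against E5.0, 238 to 372 in E6.0 against E5.5 and 1905 to 3362 in E6.0 against E5.0. Of the 10 genes it gave 0 to 2, 1 to 2, 0 to 2, 1 to 4 and 1 in the first 5 of these, 3 to 6 in FS against E6.0 and 5 to 7 in AFX against E6.0.

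AF and AFX share passage numbers and the epiblast stages share embryo numbers, but samples with the same number did not deviate together (correlations of -0.13, -0.10 and 0.20 for AF and AFX, and of -0.07 to 0.13 between stages). With a replicate block of passage 907 genes passed in AFX against AF, where Six3 passed at 2.46 and Zic2 did not at 0.58. With a replicate block of embryo number 421 genes passed in E5.5 against E5.0, where Nes was at 0.55 and did not pass. Depth limits the low genes most: 3 counts is the level that a count of 0 allows, for counting error only.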
